A study of Rattus norvegicus with 7 samples.

Results

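Erythroid genes were examined in fetal rat lung as 8 genes of the red cell lineage: the transcription factors Gata1 and Klf1, the haem enzyme Alas2, the globin chaperone Ahsp, the membrane genes Slc4a1, Epb42 and Rhag, and the nuclear protein gene Hemgn. They were chosen by name, and a gene was kept if the study's supplementary tables pair its symbol with an identifier. All 8 had an identifier, out of 23918 genes in the table, and all 8 were among the 15750 genes that passed the filter on low counts. The paired names come largely from genes selected for their response in the placenta to the same treatment, so a shared direction of named genes in lung is not independent of that choice.

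Bulk polyA RNA sequencing had been done on lungs of Sprague-Dawley rat fetuses 24 h after the amniotic cavity was injected under ultrasound guidance (intra-amniotic, IA) on embryonic day 18. The control group was 3 lungs after sterile PBS, and the IA LPS group was 4 lungs after 10 µg of lipopolysaccharide (LPS) from E. coli O55:B5, a component of the bacterial outer membrane. The treatment label of the IA LPS lungs gives the dose incompletely, and the dose used here is that of the design text. The labels do not say whether the lungs came from separate litters, so p-values measure the spread between these samples.

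Red cells mature from nucleated precursors, and in the late rodent fetus most are made in the liver and reach the lung in the blood. GATA1 and KLF1 switch on the erythroid program, after which precursors accumulate haem, globin and the proteins of the red cell membrane and finally lose the nucleus. Red cells in its vessels are the usual carriers of such transcripts in a lung, and immature red cells carry more of them than mature ones.

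The libraries held 25031827, 26844367 and 27724439 counts in control replicates 1 to 3, and 28164960, 28336525, 27332721 and 27401107 in IA LPS replicates 1 to 4. Counts were rounded to whole numbers. Levels are given as CPM, which sets each count against its library's total after TMM normalization, and 3 counts, taken as the detection floor, corresponded to 0.105 to 0.124 CPM. The floor covers counting error only. The tissue label matched the lung markers. Nkx2-1, the lung epithelial transcription factor, was between 310.4 and 389 CPM in the 7 libraries, and Sftpc, the surfactant protein C gene, between 478 and 1222 CPM.

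3 libraries stood apart. IA LPS replicate 4 held the highest value of 31.7% and the lowest value of 32.3% of the tested genes, against at most 14.7% and 16.2% in any other library. In control replicate 3 the summed level of 6 hepatocyte genes was 573 CPM, most of it Alb (albumin) at 512 CPM. The same sum was 94.9 and 37.1 CPM in control replicates 1 and 2 and 30.3, 123.6, 31.2 and 62.2 CPM in IA LPS replicates 1 to 4. IA LPS replicate 2 held Rag1, a recombinase gene of developing lymphocytes, at 27.8 CPM, against 0.407 to 1.02 CPM in the other libraries. IA LPS replicate 4 is in the deposited table but was not among the lungs compared by the study. The tests over all 7 libraries were therefore also run without each of these 3.

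None of the 8 erythroid genes passed the test between groups. To be called, a gene needed a fold change of 1.5 or more with p below 0.05 and adjusted p below 0.1 in edgeR's quasi-likelihood test, with Benjamini-Hochberg adjustment over the tested genes. By this rule 0 of 8 erythroid genes were called higher and 0 of 8 lower in IA LPS lungs, against 1.4% and 0.508% of all tested genes. 0 of the 8 had an unadjusted p under 0.05, compared with 15.8% of all tested genes, and DESeq2 and limma-voom also called 0 and gave 0 at unadjusted p under 0.05. DESeq2 called 2.69% of all tested genes higher and 1.31% lower, and limma-voom 1.19% and 0.533%. The 8 log2 fold changes were all above 0, between 0.13 and 0.64, with a median of 0.23. Over all tested genes 51.47% were above 0 and the median was 0.0097. In bulk samples, fewer cells of a type and less RNA per cell cannot be told apart.

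The groups overlapped for all 8 genes, whereas 10.6% of tested genes had every IA LPS library above every control and 9.17% every IA LPS library below. IA LPS replicate 2 was the highest library for 7 of the 8 genes, Ahsp being the exception. Control replicate 2 was the lowest for 7 of the 8, Alas2 being the exception. The spread thus lay within both groups: the highest library of a group was 1.38 to 2.97 times the lowest among the controls, and 1.95 to 2.77 times among the IA LPS lungs.

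**Figure D1:**
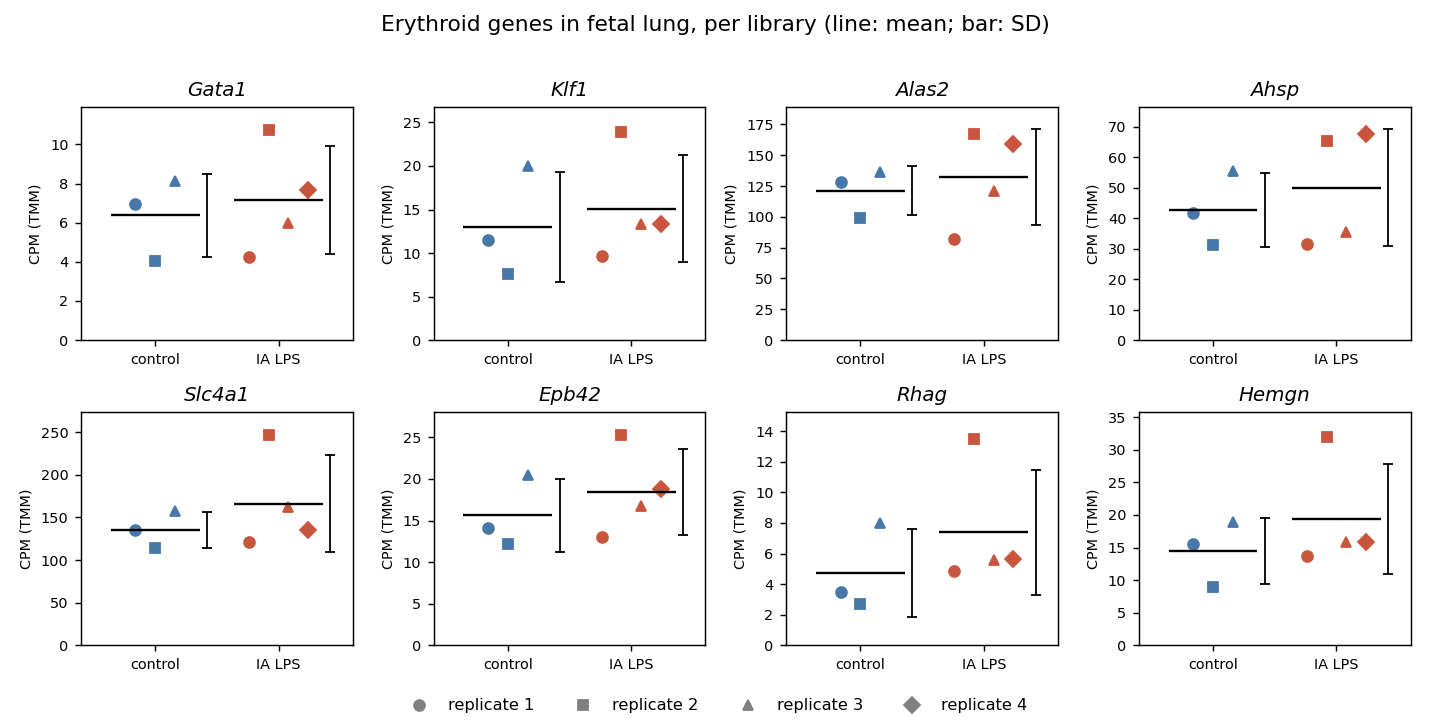
Level of each erythroid gene (CPM after TMM normalization, axes from 0) in 3 control and 4 IA LPS lungs. Symbols mark the replicate number, horizontal lines the group means and vertical bars the SD. The groups overlap in all 8 panels, and IA LPS replicate 2 is the highest library in 7 of them.

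The early factors were considered first. Gata1 (ENSRNOG00000047663) encodes the zinc finger factor that erythroid and megakaryocytic cells require. Its level was 6.96, 4.03 and 8.15 CPM in control replicates 1 to 3 and 4.22, 10.7, 5.99 and 7.68 CPM in IA LPS replicates 1 to 4. The libraries of both groups were interleaved, with IA LPS replicate 2 at the top and control replicate 2 at the bottom. The mean was 6.38 ± 2.12 CPM (SD, n = 3) in controls and 7.15 ± 2.77 CPM (SD, n = 4) in IA LPS lungs. Its log2 fold change was 0.16 (SE 0.34, 95% interval −0.62 to 0.95, edgeR adjusted p = 0.842), within the spread between replicates.

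Klf1 (ENSRNOG00000003443) encodes the erythroid factor that activates adult beta-globin and many membrane and haem genes. It was at 11.5, 7.61 and 20 CPM in control replicates 1 to 3 and at 9.67, 23.9, 13.4 and 13.3 CPM in IA LPS replicates 1 to 4. Control replicate 3 and IA LPS replicate 2 were high and the other 5 libraries were between 7.61 and 13.4 CPM. Its log2 fold change was 0.21 (SE 0.38, 95% interval −0.66 to 1.07, edgeR adjusted p = 0.817). Without IA LPS replicate 2 the sign turned for both factors, to −0.094 for Gata1 and −0.10 for Klf1, and without control replicate 2 it was −0.079 and −0.065. Without control replicate 3 the values were 0.38 and 0.66. The direction of the early factors therefore rested on single libraries.

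Alas2 (ENSRNOG00000000167) encodes the erythroid form of the enzyme that begins haem synthesis. It was at 128.2, 99.1 and 136.6 CPM in control replicates 1 to 3 and at 82.1, 167.5, 121.1 and 158.9 CPM in IA LPS replicates 1 to 4. The IA LPS group held both the lowest and the highest library, and its SD was 39.1 CPM against 19.7 CPM in controls. The log2 fold change was 0.13 (SE 0.24, 95% interval −0.42 to 0.67, edgeR adjusted p = 0.823). It was 0.026 without IA LPS replicate 4, −0.0037 without IA LPS replicate 2 and 0.30 without IA LPS replicate 1.

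Ahsp (ENSRNOG00000020165) encodes the chaperone that binds free alpha-globin until it pairs with beta-globin. Its level was 41.8, 31.1 and 55.4 CPM in control replicates 1 to 3 and 31.6, 65.3, 35.6 and 67.8 CPM in IA LPS replicates 1 to 4. IA LPS replicates 1 and 3 were low and replicates 2 and 4 high, with control replicate 2 beside the low ones and the other controls in between. Its log2 fold change was 0.23 (SE 0.31, 95% interval −0.49 to 0.94, edgeR adjusted p = 0.750). With 1 library left out it ran from 0.043 without control replicate 2 to 0.46 without control replicate 3, and it was 0.045 without IA LPS replicate 4.

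The membrane genes came next. Slc4a1 (ENSRNOG00000020951) encodes band 3, the anion exchanger that anchors the red cell skeleton. It was at 134.8, 114 and 157 CPM in control replicates 1 to 3 and at 121.1, 247 and 161.8 CPM in IA LPS replicates 1 to 3, with 134.8 CPM in replicate 4. Apart from IA LPS replicate 2, the ranges of the groups nearly coincided. Between groups the log2 fold change was 0.30 (SE 0.24, 95% interval −0.26 to 0.85, edgeR adjusted p = 0.581). With 1 library left out it ran from 0.043 without IA LPS replicate 2 to 0.42 without IA LPS replicate 1.

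Epb42 (ENSRNOG00000011649) encodes protein 4.2, which binds band 3. It was at 14.1, 12.2 and 20.5 CPM in control replicates 1 to 3 and at 13, 25.3, 16.8 and 18.9 CPM in IA LPS replicates 1 to 4. Control replicate 3 lay above 3 of the 4 IA LPS lungs. Between groups the log2 fold change was 0.24 (SE 0.25, 95% interval −0.33 to 0.82, edgeR adjusted p = 0.668). It was 0.055 without IA LPS replicate 2 and 0.49 without control replicate 3.

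Rhag (ENSRNOG00000050121) encodes the Rh-associated glycoprotein, which is needed for the Rh complex at the red cell surface. It had few counts, 85, 73 and 228 in control replicates 1 to 3 and 139, 370, 156 and 152 in the 4 IA LPS libraries. These were 3.50, 2.70 and 8.01 CPM in the controls and 4.85, 13.4, 5.57 and 5.64 CPM in the IA LPS lungs. All 4 IA LPS lungs lay above control replicates 1 and 2, and control replicate 3 lay above 3 of the 4. The log2 fold change of 0.64 (SE 0.47, 95% interval −0.45 to 1.72, edgeR adjusted p = 0.545) was the highest of the 8. Without control replicate 3 it was 1.25 (edgeR adjusted p = 0.350) and without IA LPS replicate 2 it was 0.18 (edgeR adjusted p = 0.866).

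Hemgn (ENSRNOG00000009436) encodes hemogen, a nuclear protein of blood cell precursors. It was at 15.5, 8.98 and 18.9 CPM in control replicates 1 to 3 and at 13.7, 31.9, 15.9 and 15.9 CPM in IA LPS replicates 1 to 4. IA LPS replicate 2 stood above all others, and the other 3 IA LPS lungs fell inside the range of the controls. Its log2 fold change was 0.42 (SE 0.35, 95% interval −0.37 to 1.21, edgeR adjusted p = 0.585). It was 0.069 without IA LPS replicate 2 and 0.66 without control replicate 3.

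**Figure D2:**
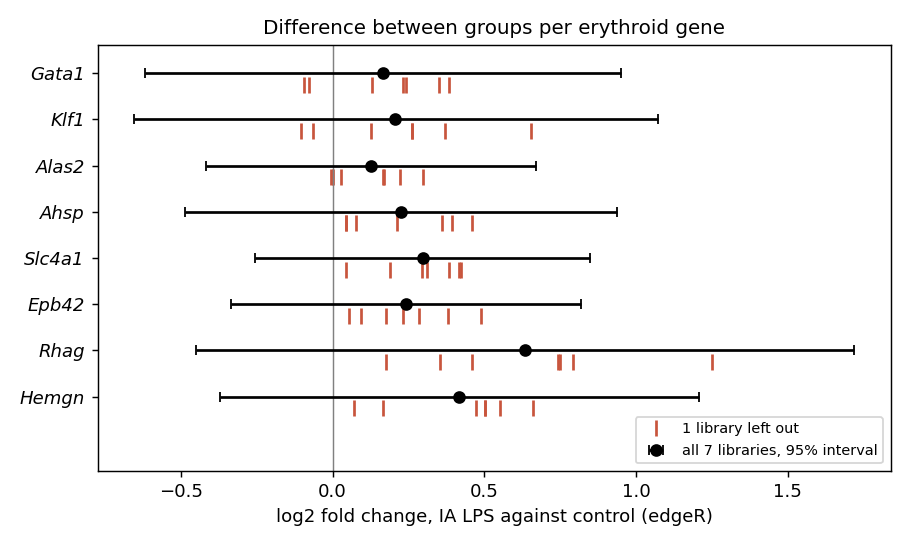
Log2 fold change of each erythroid gene between IA LPS and control lungs. Points with lines are the estimates of edgeR over all 7 libraries with 95% intervals, and red ticks are the estimates with 1 library left out in turn. Every interval includes 0, and the ticks of Gata1, Klf1 and Alas2 fall on both sides of it.

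Without control replicate 3 and IA LPS replicate 2 together, a choice made after the data were seen, edgeR called 0 of the 8 erythroid genes and 0 of 15781 tested genes in either direction (0.0%). At unadjusted p under 0.05 there were 1 of the 8 and 1473 of all tested genes, and the median log2 fold change of the 8 was 0.31 with all 8 above 0. Without IA LPS replicate 4, 0 of the 8 were called, while 2.17% of tested genes were called higher and 1.13% lower, and 0 of the 8 had an unadjusted p under 0.05, against 22.2% of all tested genes. In that fit the log2 fold changes were 0.13 for Gata1, 0.26 for Klf1, 0.026 for Alas2, 0.045 for Ahsp, 0.38 for Slc4a1, 0.23 for Epb42, 0.74 for Rhag and 0.50 for Hemgn, with a median of 0.25. Without control replicate 3 alone, 0.0126% of genes were called in each direction, and without IA LPS replicate 2 alone 0.0064% were called higher and 0.0% lower, again with 0 of the 8. At unadjusted p under 0.05 these fits gave 1 and 0 of the 8, and 12.4% and 12.3% of all tested genes. The median of the 8 was 0.47 without control replicate 3, and 0.049 with 5 of 8 above 0 without IA LPS replicate 2. Without control replicate 1 edgeR called 1 gene higher and 1 lower, and without control replicate 2 it called 1 and 0, so the calls across the table depended on single libraries of both groups. At these shares, 0 of 8 does not set the erythroid genes apart from the table.

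Relative to other genes, the erythroid genes varied much between lungs of the same group. The residual SD of log2 CPM within groups was 0.38 for Slc4a1 and 0.73 for Rhag, the lowest and highest of the 8, which put them at percentiles 77.4 and 94.1 of all tested genes. The variation was shared. The median deviation of the 8 genes from their means (log2 scale) was −0.12, −0.60 and 0.30 in control replicates 1 to 3 and −0.41, 0.73, −0.011 and 0.10 in IA LPS replicates 1 to 4. All 8 genes were above their mean in control replicate 3 and in IA LPS replicate 2, and all 8 below it in control replicate 2 and in IA LPS replicate 1. Control replicate 3 was also the library with the most hepatocyte RNA by summed CPM, and IA LPS replicate 2 the second. In both, most of the sum was Alb (512 and 83.7 CPM). IA LPS replicate 2 was second for Alb, Fetub and Vtn. Control replicate 1 lay above it for Apoa2 (0.782 against 0.473 CPM) and Hpx (4.73 against 4.51 CPM). Serpinc1 was highest in IA LPS replicate 4 (42.2 CPM). The hepatocyte list had identifiers for 6 of 13 genes, with Apoa2 at 0 in IA LPS replicate 3. EdgeR called 0 of these 6 between groups (median log2 fold change −1.51, and −0.19 without control replicate 3), with 2 at unadjusted p under 0.05, limma-voom 0 with 1, and DESeq2 1, the haemopexin gene Hpx, with 2. IA LPS replicate 2 also held 34.2 CPM of 5 lymphocyte genes, of 10 listed, against 2.51 to 4.05 CPM in the other libraries. Most of this was Rag1 at 27.8 CPM, followed by Cd2 at 3.05 CPM. Dntt (0.618 CPM) was higher in control replicate 1 (0.659 CPM), and Vpreb2 (0.981 CPM) in IA LPS replicate 4 (1.113 CPM). Of the 4 lymphocyte genes tested, edgeR, DESeq2 and limma-voom called 0 and gave 0 at unadjusted p under 0.05. The part of these cell types in the erythroid levels was not tested. Whether neighbouring tissue was sampled with control replicate 3 or IA LPS replicate 2 is not known and was not tested.

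Early and late genes moved together over the 7 libraries. Each of Gata1 and Klf1 was paired with the 6 later genes, and 12 relations were computed on log2 CPM. Pearson's r was 0.78 to 0.96 with a median of 0.90. In the two-sided exact permutation test over all pairings, p was 0.000198 to 0.0401, with 0.000198 the smallest value these pairings allow, and all 12 had a Benjamini-Hochberg adjusted p over the 12 pairs of 0.00238 to 0.0401. Spearman's rho was 0.71 to 1.00, with exact permutation p of 0.000397 to 0.0881 and adjusted p of 0.00476 to 0.0881. By rho 9 of the 12 pairs had an adjusted p under 0.05 in this exact test. The others were Gata1 with Slc4a1 and Klf1 with Alas2, both at an adjusted exact permutation p of 0.0524, and Klf1 with Ahsp at 0.0881. Among 14309 other genes at a mean of 1 CPM or more, 0.776% had an r with Gata1 at or above the lowest of its later partners, and 0.978% had this with Klf1.

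The pairs are given as a description, since no difference between them was tested. Over all 7 libraries r with Klf1 was 0.96 for Epb42 (rho = 0.96), 0.94 for Hemgn (rho = 1.00) and 0.94 for Rhag (rho = 0.93), and 0.78 for Alas2 (rho = 0.79) and 0.79 for Ahsp (rho = 0.71). IA LPS replicate 4 had high Alas2 and Ahsp beside Klf1 near its group mean. Without this library r with Klf1 was 0.983 for Epb42, 0.946 for Ahsp, 0.943 for Hemgn and 0.941 for Rhag. It was 0.906 for Slc4a1 and 0.859 for Alas2. The place of Ahsp in the order thus rested on IA LPS replicate 4. For Gata1 the order depended on the measure: r was highest with Alas2 (0.93) and lowest with Rhag (0.80), and rho was highest with Epb42 (0.96) and lowest with Slc4a1 (0.79). Without IA LPS replicate 4, r with Gata1 was highest for Ahsp (0.965). Between deviations from the group means r was 0.78 to 0.97.

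After the 2 libraries farthest from the median of the early gene were left out, r over the other 5 was 0.61 to 0.99. The lowest was Klf1 with Ahsp and the highest Klf1 with Hemgn. Without control replicate 2 alone, 7 of the 12 pairs had an adjusted p under 0.05 by r in the exact permutation test, and likewise 7 without IA LPS replicate 2. With any of the other 5 libraries left out, 9 to 11 of the 12 did, so by r pairs were lost whichever library was removed. By rho, 5 of the 12 passed without control replicate 2, 5 without IA LPS replicate 2 and 6 to 10 without any of the other 5. The r of a lost pair was not always lower: Klf1 with Alas2 had r = 0.80 without control replicate 3 and 0.81 without IA LPS replicate 1, against 0.78 over all 7, and these tests had 6 libraries. Over 132 alternative values no r changed sign and the lowest was 0.64, for Gata1 with Rhag without IA LPS replicate 2.

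Ratios within a library show whether genes moved by the same factor. The count of Gata1 per count of Klf1 was 0.604, 0.529 and 0.409 in control replicates 1 to 3 and 0.437, 0.448, 0.448 and 0.578 in IA LPS replicates 1 to 4, so the groups overlapped. Slc4a1 per Klf1 varied from 7.87 in control replicate 3 to 15 in control replicate 2, a range set within the control group. Of 16 such ratios, chosen after the counts were seen, the groups were separate for 4. In a two-sided exact permutation test of the log2 ratios, each of these 4 had p = 0.0571. This is the smallest value the group sizes allow, and the Benjamini-Hochberg adjusted p over the 16 was 0.229, so none passed. Rhag per Klf1 was 0.304, 0.354 and 0.401 in the controls and 0.502, 0.562, 0.416 and 0.425 in the IA LPS lungs, so that all 4 IA LPS lungs were higher, if narrowly for replicates 3 and 4. The count of a tested gene per count of Klf1 separated the groups in this direction for 0.508% of genes. This share also reflects the spread of Klf1 itself, and no share was computed among genes that move with Klf1. The same limit holds for the shares given with the globin ratios.

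The other 3 ratios involved globins, the chains of haemoglobin, of which the adult alpha gene Hba-a1 took 1.33% to 3.04% of all counts. Hba-a1 per Alas2 was 130.1, 138.8 and 123.1 in control replicates 1 to 3 and 158.8, 169.1, 160.4 and 194.6 in IA LPS replicates 1 to 4. All IA LPS lungs lay above all controls, as did 2.1% of tested genes taken per count of Alas2. Hba-a1 per Hbb-b1, an adult beta gene, was 8.15, 9.41 and 7.43 in controls and 9.99, 9.65, 9.51 and 14.1 in IA LPS lungs. Such a separation was shown by 1.53% of genes per count of Hbb-b1. Of the listed globin genes, Hba-a2, Hba-a3, Hbb and Hbb-b2 had no identifier. The ratio is therefore not one of all alpha to all beta transcripts. Hbb-b1 per Alas2 did not separate the groups, at 14.7 to 16.6 in controls and 13.8 to 17.5 in IA LPS lungs. Hba-a1 per Slc4a1 was 229.3 in IA LPS replicate 4 and 107.1 to 123.7 in the other 6 libraries. Near-identical globin genes share reads, which kallisto divides by estimate, so these values are uncertain to that extent.

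The embryonic globin gene Hbz, expressed in the primitive red cells that precede the definitive lineage, went the other way. Hbz was at 67.8, 49.2 and 43.8 CPM in control replicates 1 to 3 and at 21.5, 62.9, 37.8 and 27.4 CPM in IA LPS replicates 1 to 4. The groups overlapped, and the log2 fold change of −0.52 (SE 0.34, edgeR adjusted p = 0.489) was not past the threshold. Per count of Hba-a1, Hbz was 0.00407, 0.00357 and 0.0026 in controls and 0.00165, 0.00222, 0.00194 and 0.000886 in IA LPS lungs, so all 4 IA LPS lungs were lower. This held for 4.46% of tested genes per count of Hba-a1. Hbe1, another embryonic globin gene, was between 445.6 and 594.7 CPM in controls and between 336.8 and 546.6 CPM in IA LPS lungs, which overlapped.

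**Figure D3:**
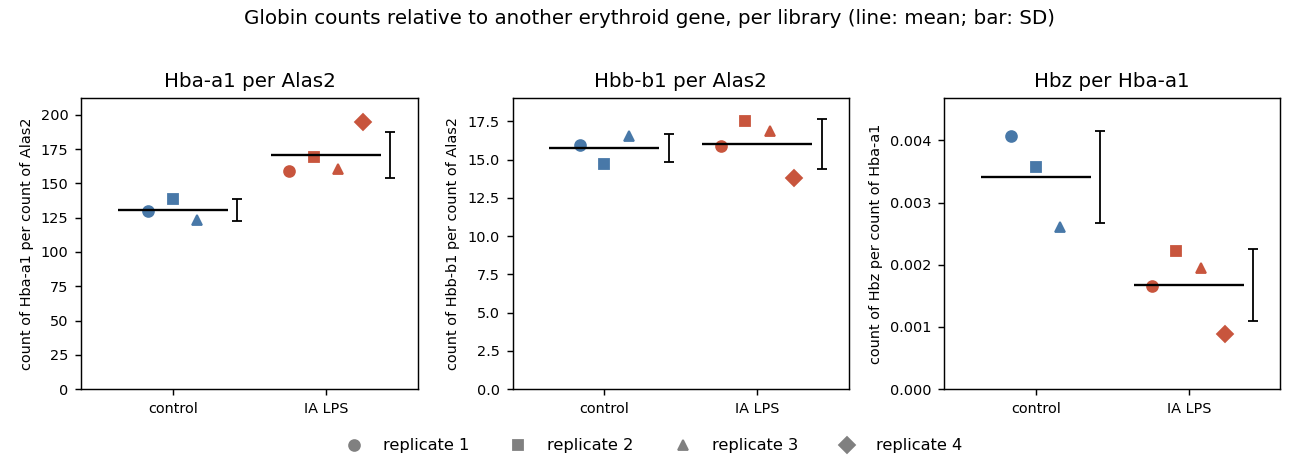
Counts of globin genes relative to another erythroid gene in the same library (axes from 0), for 3 control and 4 IA LPS lungs. Symbols mark the replicate number, horizontal lines the group means and vertical bars the SD. The groups are separate for Hba-a1 per Alas2 and Hbz per Hba-a1, and overlap for Hbb-b1 per Alas2.

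Further erythroid genes had been listed by role, 82 in all, of which 28 had an identifier and 27 were tested. EdgeR called 0 of the 27 higher and 0 lower, with 4 at unadjusted p under 0.05, and DESeq2 and limma-voom called 0 with 6 and 2 at unadjusted p under 0.05. Over all tested genes the shares at unadjusted p under 0.05 were 15.8%, 16.8% and 15.6%, so the 4 of 27 lay near the background. The log2 fold change was above 0 for 20 of the 27 and its median was 0.28. Without IA LPS replicate 2 it was above 0 for 15 of 26 with a median of 0.11, and without control replicate 3 the median was 0.40. IA LPS replicate 2 was the highest library for 16 of the 28 and control replicate 2 the lowest for 11.

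By role, all 8 tested membrane and surface genes had a log2 fold change above 0, with a median of 0.36. Sptb, erythroid beta-spectrin, was the most abundant of them, at 26.3 to 38.9 CPM in controls and 24.4 to 55.8 CPM in IA LPS lungs. Of the 5 tested globin genes 3 were above 0, with a median of 0.14, and Hba-a1 had a log2 fold change of 0.54 (SE 0.29, edgeR adjusted p = 0.397). The 9 maturation genes and enzymes had a median of 0.19 with 6 above 0, led in level by Gpx1, a peroxidase that is not confined to red cells. Trim10, a gene of terminal erythroid maturation, had the highest log2 fold change of the further genes, 1.04 (SE 0.41, edgeR adjusted p = 0.280). Of the 3 regulators, E2f2 had 0.40 (SE 0.14, edgeR adjusted p = 0.245) and Nfe2 0.38, whereas Bcl11a, a repressor of fetal globin genes, had −0.36 (SE 0.16, edgeR adjusted p = 0.314). The 2 haem and iron genes went apart, Hfe at 0.38 and Fam210b at −0.36 (edgeR adjusted p = 0.226). None of these passed the thresholds. Without IA LPS replicate 2 the medians were 0.13 for membrane and surface genes (7 tested), −0.055 for globins and −0.026 for maturation genes and enzymes. Without control replicate 3 they were 0.57, 0.27 and 0.37, and 0.38, −0.032 and 0.13 when IA LPS replicate 4 was left out. The signs of the globin and maturation medians thus depended on single libraries.

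Other blood and lung cell lists were measured in the same way. Of 9 tested neutrophil genes edgeR called 1 higher, the collagenase gene Mmp8, at 1.93 on the log2 scale (SE 0.45, adjusted p = 0.0970), and 5 of the 9 had an unadjusted p under 0.05. The most abundant, Csf3r, the receptor gene of a granulocyte growth factor, was between 5.93 and 7.98 CPM in controls and between 5.83 and 10.3 CPM in IA LPS lungs. Of 5 macrophage genes 3 were called higher, the complement genes C1qa, C1qb and C1qc, with log2 fold changes of 0.83, 0.83 and 0.91. Of 6 lung epithelial genes Sftpd and Cldn18 were called higher, at 2.88 and 0.66. Over all tested genes 1.4% were called higher. All 6 of these calls were also made without IA LPS replicate 4, but 0 of the 6 without control replicate 1, 2 or 3 or IA LPS replicate 2, 1 without IA LPS replicate 1 and 4 without IA LPS replicate 3. In each of these fits edgeR gave all 6 a log2 fold change above 0 and an unadjusted p under 0.05. The summed level of the 5 macrophage genes was 118.3, 124.1 and 140.4 CPM in controls and 219.2, 228.8, 168.3 and 263.7 CPM in IA LPS lungs, without the order of libraries seen for the erythroid genes. Treml1, the 1 megakaryocyte gene of 9 with an identifier, was between 0.741 and 2.08 CPM and was not called (edgeR adjusted p = 0.333), and none of the 6 endothelial genes listed had an identifier.

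Genes with a pattern most like the erythroid genes were sought by Pearson's r, over the 7 libraries, with the mean of the standardized log2 CPM of the 8. The 10 closest of 14309 genes included 3 from the erythroid lists. They were Kel, a blood group glycoprotein gene (r = 0.96), Kcnn4, a potassium channel gene (r = 0.95), and Hbb-b1 (r = 0.95). Most of the others had no name in the tables used, and of these the closest, which was the closest of all, was ENSRNOG00000020349 (r = 0.99). An r above 0.9 was found for 5 of 25 listed erythroid genes and for 0.147% of all genes compared. Hbz (r = 0.33) and Hbe1 (r = 0.23) were far from the pattern, and Bcl11a ran against it (r = −0.63). Of the other cell lists, the closest genes were Rag1 (r = 0.80), the granule enzyme gene Mpo (r = 0.74) and the hepatocyte gene Fetub (r = 0.70). Alb was at 0.62, and Nkx2-1 was the lowest at −0.31. The erythroid genes Hba-a1 and Sptb lay at 0.79 and 0.67.

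Promoters were read because the genes moved together and GATA1 and KLF1 bind known short motifs. RefSeq (GRCr8) gave 7 promoters for 6 of the 8 genes, all but Ahsp and Slc4a1, with 2 for Hemgn. The 250 bases before the start were read on both strands. AGATAA or TGATAA, the letters of the GATA motif, were found for 4 of the 6 genes (Alas2, Hemgn in 1 of 2 promoters, Rhag and Klf1). Over all genes 4920 of 27457 had it, and 16.9% of 33469 promoters. CACCC, the core of the KLF1 motif, was found for Rhag, Klf1 and Gata1, against 14114 of 27457 genes and 49.2% of promoters. Both motifs together were found for Rhag and Klf1, against 1910 genes and 6.47% of promoters. CAGNTG, an E-box, was found for Hemgn and Epb42, against 12376 genes and 43.3% of promoters. Of 18 further erythroid genes, 11 had the GATA motif, 14 CACCC, 9 both of these and 7 the E-box. A match is a description of these letters and not a site. The stretches of 100 bases with the GATA motif are shown to let its place be seen, with GATA and CACCC matches in capitals, on either strand. They are Klf1 at chr19:40158652-40158751 (minus strand), Rhag at chr9:27594391-27594490 (minus strand) and Hemgn at chr5:65485822-65485921 (minus strand), each ending at the base before the start, and Alas2 at chrX:22895300-22895399 (plus strand), ending 51 bases before it. In Klf1 and Rhag the motif lies on the opposite strand, 21 to 26 and 26 to 31 bases before the start.
Klf1: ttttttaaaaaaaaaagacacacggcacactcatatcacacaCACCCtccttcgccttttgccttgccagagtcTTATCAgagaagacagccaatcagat
Rhag: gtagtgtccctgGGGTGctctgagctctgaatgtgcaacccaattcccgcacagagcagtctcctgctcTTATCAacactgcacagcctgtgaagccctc
Hemgn: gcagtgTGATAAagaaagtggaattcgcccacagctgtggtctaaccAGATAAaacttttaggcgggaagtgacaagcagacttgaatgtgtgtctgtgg
Alas2: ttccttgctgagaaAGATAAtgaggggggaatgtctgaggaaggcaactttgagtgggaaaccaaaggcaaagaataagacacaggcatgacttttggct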

How the data were processed

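PolyA RNA of 7 fetal lungs was analysed. The deposited values are estimated counts, which the authors obtained with kallisto on the rat build rno6.0 and summarized by gene with tximport, unnormalized. These were rounded to whole numbers. Groups and replicate numbers came from the sample labels. Identifiers were matched to symbols through the study's supplementary tables, which paired 2070 identifiers, 2050 of them in the table. The members and lists were chosen with earlier results of these data known.

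Genes were filtered with filterByExpr, normalized with TMM and tested with edgeR 4.0.16 (R 4.3.3), with the group as the only term and Benjamini-Hochberg adjustment over 15750 genes. DESeq2 1.42.0 and limma 3.58.1 (voom) were alternatives. The test was checked on simulated counts. Of 200 genes changed 3-fold it called 167 in the right direction, with 18 false calls. With no gene changed there were 2 false calls. Smaller changes, such as those estimated for the 8 erythroid genes, were not simulated. Log2 CPM used a prior count of 2. Correlations used exact permutation over the pairings (Python 3.11.15, scipy 1.17.1). All 8 erythroid genes are named. From the other lists the called genes and the most abundant gene are named. The 10 genes most like the 8 were to be named too, and 4 of them are, since most of the others had no symbol. Other list genes named with values were chosen after these were seen. 1 listed gene is not reported here. No pair of libraries held identical values. Alternatives were leaving out each library, a replicate block, size factors of DESeq2, other filters and thresholds, and counts thinned to the smallest library.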

Additional observations from a re-analysis of the deposited data

Results flagged for a closer look

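Among 66 genes of the lists, 9 had a library far from the other 3 of the IA LPS group, by the gap to the nearest library relative to the range of the group. Chance marks about 1 in 20 groups in this way. In 8 of the 9 the library was IA LPS replicate 2. It held Hemgn at 31.9 CPM and Rhag at 13.4 CPM, both among the 8 erythroid genes, Tspo2 at 1.67 CPM and Car1 at 5.45 CPM, which are further erythroid genes, the hepatocyte genes Alb at 83.7 CPM and Hpx at 4.51 CPM, the granule enzyme gene Mpo at 7.56 CPM, and Rag1 at 27.8 CPM. The exception was S100a9, a neutrophil gene, at 9.01 CPM in IA LPS replicate 1. The rule looked only within the IA LPS group. Control replicate 3 was higher than IA LPS replicate 2 for Alb (512 CPM), Hpx (13.5 CPM), Mpo (8.08 CPM) and Car1 (8.22 CPM). It was lower for Hemgn (18.9 CPM), Rhag (8.01 CPM), Tspo2 (0.984 CPM) and Rag1 (1.02 CPM). What sets IA LPS replicate 2 apart was not tested.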

How the results depend on the processing

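Over 15 settings with fold changes of their own, 114 of 120 alternative values of the 8 log2 fold changes kept their direction. Another 2 settings changed only the threshold or the filtering of p-values. None of the 8 was called in any of the 17, with a lowest edgeR adjusted p of 0.350. The sign turned in 6. Without IA LPS replicate 2 it was −0.0037 for Alas2, −0.10 for Klf1 and −0.094 for Gata1, and without control replicate 2 it was −0.065 for Klf1 and −0.079 for Gata1. The highest values with 1 library left out were 0.30, 0.66 and 0.38. With the replicate number as a block Alas2 was at −0.021. The deviations of same-numbered libraries from their group means had r of 0.145, −0.0558 and −0.193. With only 3 such pairs, this cannot decide whether the numbers pair the samples. Across the table, 220 genes were called higher and 80 lower. With the replicate block there were 286 and 152, with DESeq2 424 and 206 (the same without its independent filtering), and at adjusted p under 0.05 without a fold minimum 89 and 39. With 1 library left out the counts ran from 1 to 339 and from 0 to 176. With both control replicate 3 and IA LPS replicate 2 left out, chosen after seeing the data, they were 0 and 0. The number of early and late pairs past adjusted p 0.05, of 12, was 12 by Pearson's r and 9 by Spearman's rho, and with 1 library left out 7 to 11 and 5 to 10. With thinned counts rho gave 12. The numbers were also 12 and 9 without normalization factors and with a prior count of 0.5, both added after seeing the data. The causes were not tested. The lowest count of the 8 genes was 73, for Rhag in control replicate 2.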
